A study of Mus musculus with 2 samples.

Results

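Second arch Hox-positive mesenchyme was taken as the mesenchyme cells that carried at least 1 Hoxa2 or Hoxb2 UMI, a molecular tag that marks 1 captured transcript. A kept cell counted as mesenchyme when its Prrx1, Prrx2 and Twist1 UMIs summed to 3 or more and its Sox2, Sox10 and Elavl3 UMIs to 1 or fewer. By this rule 831 of 11212 kept cells were members, 412 of 5625 in the control library and 419 of 5587 in the mutant library. The remaining mesenchyme cells, 3097 control and 2139 mutant, had no Hoxa2 or Hoxb2 UMI and are called Hox-negative below. Of these, 1137 control and 581 mutant cells carried a Dlx5 or Dlx6 UMI.

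The study profiled sorted CNCCs, the neural crest cells of the head, from E11.5 mouse embryos to ask what the transcription factors TFAP2A and TFAP2B do in the forming face. Control embryos were Tfap2a wt/flox; Tfap2b wt/flox and mutants Tfap2a flox/flox; Tfap2b flox/flox, and all carried r26 mTmG/mTmG and Wnt1CRE+. The Wnt1:CRE driver recombines in premigratory neural crest, so the crest of the controls also carries 1 deletable copy of each gene, and GFP from the mTmG reporter marked the cells for sorting. Heads were cut below the second arch and otic vesicle, and 2 embryos were pooled into the 1 library of each group. No test across embryos is therefore possible, each difference has no replicate check, and the values in brackets below are 95% intervals for counting error only. Xist was present in 99.3% of control members and 0.239% of mutant members. Y-linked transcripts were found in 0 of 412 control members, which allows a share of up to 0.728%, and in 89.7% of mutant members, so for every difference below, genotype cannot be told apart from sex. The libraries shared 5 barcodes, none of them a member.

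CNCCs that fill the second pharyngeal arch express Hox genes of paralogue group 2, whereas those of the first arch and the frontonasal region do not. Hoxa2 is the selector of second arch identity, and without it second arch skeletal elements take a first arch form. Along the other axis of an arch, endothelin and BMP signals pattern the distal end, where Hand2 and the Msx genes are active, and nested Dlx genes mark positions from proximal to distal. Hox proteins bind DNA together with TALE cofactors of the Meis and Pbx families.

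The members were selected on Hoxa2 and Hoxb2, so their levels describe the rule and support nothing else. Hoxa2 had 846 and 952 UMIs in control and mutant members, and Hoxb2 had 316 and 180. Hoxa2 without Hoxb2 was seen in 51.9% of control and 67.8% of mutant members, Hoxb2 without Hoxa2 in 18.2% and 12.2%, and both in 29.9% and 20%. In GRCm38, Hoxa2 (ENSMUSG00000014704) lies on chromosome 6, 52162417 to 52164831, and Hoxb2 (ENSMUSG00000075588) on chromosome 11, 96350525 to 96354012. The antisense gene Hoxb3os overlaps Hoxb2 on the opposite strand. Whether counting used the strand is not given in the sources used here and was not checked. It is thus not known here whether reads of a gene and its antisense partner were kept apart.

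Members made up 11.7% (10.7 to 12.9) of control mesenchyme and 16.4% (15 to 17.9) of mutant mesenchyme, a difference of 4.64 points (2.84 to 6.46). As a share of all kept cells they made up 7.32% (6.66 to 8.04) and 7.5% (6.82 to 8.22), while the mutant library held fewer mesenchyme cells, 2558 against 3509. Cells that should lack both genes give the background. A Hoxa2 or Hoxb2 UMI was found in 2.16% and 2.1% of mesenchyme cells with 3 or more UMIs of Alx1, a frontonasal gene, and in 2.91% and 5.74% of midbrain-type progenitors. Median depth was 14725 and 15041 UMIs in members, and in the control library 15858 in Alx1-rich cells and 13031 in progenitors. When each cell was thinned to 5000 UMIs, the shares with a Hox UMI were 7.03% and 9.76% of mesenchyme. They were then 0.721% and 1.15% of Alx1-rich cells and 1.22% and 2.67% of midbrain-type progenitors.

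**Figure D1:**
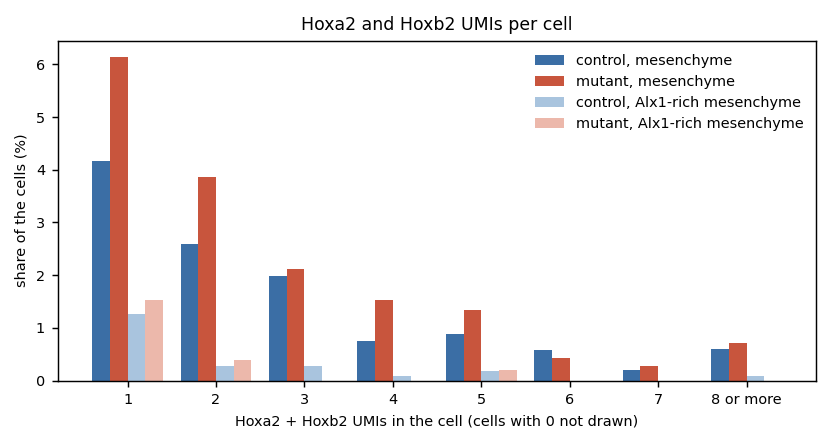
Share of cells (vertical axis, %) by the number of Hoxa2 and Hoxb2 UMIs they carried (horizontal axis), in all mesenchyme and in Alx1-rich mesenchyme of each library. Cells with 1 UMI were 4.16% of control and 6.14% of mutant mesenchyme, against 1.26% and 1.53% of Alx1-rich cells.

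Cells just inside the threshold, with 1 UMI, numbered 146 in the control and 157 in the mutant library. In thinned cells, Hoxaas2 was found in 11.6% and 13.5% of these, against 0.521% and 0.899% of cells with 0 UMIs just outside it, and in 19.4% and 29.4% of cells with 3 or more. Meis1 stepped up in the same place, from 13.5% and 12.6% with 0 UMIs to 52.1% and 56.4% with 1, and was at 62.3% and 67.5% with 3 or more. Alx1 ran the other way, from 38.6% and 27.4% with 0 UMIs to 10.3% and 7.69% with 1 and 3.43% and 2.45% with 3 or more. The members with a single UMI thus carried Alx1 more often than those with 3 or more.

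Apart from the gate genes, the members were set off from Hox-negative mesenchyme by genes that led in both libraries. Hoxaas2 (ENSMUSG00000056445, chromosome 6, 52165674 to 52169564), a non-coding transcript beside Hoxa2 that overlaps Hoxa3 on the opposite strand, had 245 and 344 UMIs in control and mutant members. Its log2 ratio over Hox-negative cells was 5.27 in the control and 5.04 in the mutant. Of the 3 markers given for these cells it is the one that the rule did not use, and it was present in both libraries. The cofactor gene Meis1 had 1369 and 1592 UMIs, a log2 ratio over Hox-negative cells of 2.62 in the control and 2.78 in the mutant, and was found in 352 and 370 members. Gm16141, which overlaps Meis1 on the opposite strand, was at 2.62 in the control and 2.89 in the mutant.

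The other 12 genes that led by the lower of both log2 ratios were 3110099E03Rik, Hoxb3os, Lypd1, Pcp4, Dlx3, Mylk3, Emx2, Irx2, Dlx4os, Hmx1, Hgf and Dlx6os1. Among them, Emx2 encodes a homeodomain factor, Hmx1 a homeodomain factor of the lateral face and outer ear, Lypd1 a membrane-anchored modulator of nicotinic receptors, and Hgf the ligand of the receptor MET. The log2 ratio of Emx2 over Hox-negative cells was 2.43 in the control and 3.21 in the mutant, and that of Hmx1 3.51 in the control and 2.31 in the mutant. At the low end, Alx1 was at -2.82 in the control and -2.91 in the mutant, and the first arch gene Pitx1 at -2.73 in the control and -2.95 in the mutant. Tfap2b was at -1.95 in the control and -1.99 in the mutant, so that members of both libraries carried less of it than Hox-negative mesenchyme did. These values describe cells that were chosen by a gene and carry no test.

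**Figure D2:**
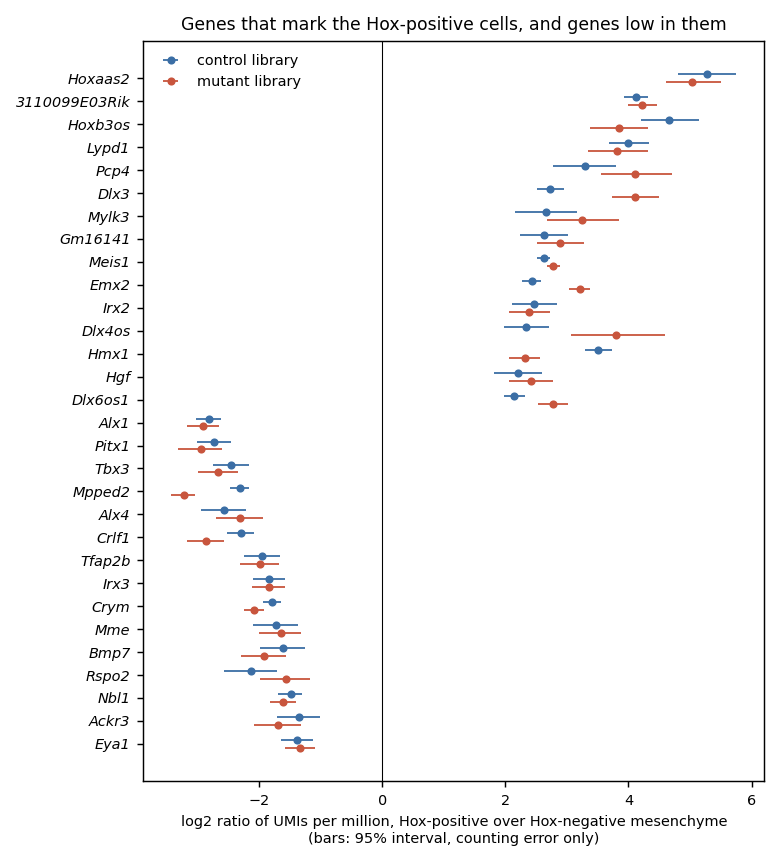
log2 ratio of CPM (UMIs scaled to the summed UMIs of the set) in Hox-positive over Hox-negative mesenchyme (horizontal axis) for the 15 genes that led in both libraries and the 15 lowest, with 95% counting intervals. Emx2, Dlx3 and Dlx4os stand further right in the mutant and Hmx1 further right in the control.

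The TFAP2 proteins recognise the palindromic motif GCCNNNGGC, which reads the same on both strands. RefSeq promoters (GRCm38.p6, 250 bases before to 50 after the start) were at hand for 13 of the 15 marker genes, and 4 of the 13 held the motif. Of all 27025 genes with such a promoter, 18.5% held it, and of the 7221 among the genes tested below, 29.9%. The matches are shown because Hmx1 and Lypd1 were both markers of the members and lower in the mutant. The motif is in capitals, and each line gives the strand of the gene.
Lypd1, chr1:125912980-125913008, minus strand: gagggaggcaGCCTATGGCcaattggcca
Hmx1, chr5:35388668-35388696, plus strand: cgggtctcctGCCCTGGGCcctgccacca
Hmx1, chr5:35388786-35388814, plus strand: gcgccgccccGCCCCCGGCaccgccccct
Irx2, chr13:72628612-72628640, plus strand: cctccctccaGCCTCTGGCtgccactcct
Hoxb3os, chr11:96353392-96353420, minus strand: cgctctgccgGCCTCCGGCtctgagcatt
A match describes the letters and is not a site of binding. Of the genes that were 1.5-fold or more lower in mutant members, 10 of 60 with a promoter held the motif, and of those higher, 27 of 84.

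Between the libraries, members were compared over their summed UMIs, scaled to equal library sums (CPM), from 6556923 UMIs in the control and 6824742 in the mutant. Of 9014 genes with 100 or more UMIs over both, 111 were 1.5-fold or more higher in the mutant (1.23%) and 94 were as much lower (1.04%). In all, 50.5% lay above 0 on the log2 scale, and the median was 0.00. Log2 ratios below are mutant over control unless another ratio is named, and UMIs are given for the control and then the mutant members.

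Of the 15 marker genes, 1 (Pcp4) was past 1.5-fold higher and 3 (Lypd1, Dlx4os and Hmx1) were past 1.5-fold lower. Lypd1 had 255 and 144 UMIs, a log2 ratio of -0.88 (-1.19 to -0.58), and -0.70 in Hox-negative cells. Hmx1 had 415 and 262 UMIs and a log2 ratio of -0.72 (-0.95 to -0.49) in members, against 0.49 in Hox-negative mesenchyme. The Hmx1 value moved with the cells taken, to -1.64 in members with 3 or more Hox UMIs and to -0.31 in members without a UMI of Hoxa3, Hoxb3, Hoxd3 or Hoxd4. Pcp4, which encodes a small calmodulin-binding protein, had 78 and 124 UMIs, a log2 ratio of 0.61 (0.19 to 1.04). Hoxaas2 was at 0.43 (0.19 to 0.67) and Meis1 at 0.16 (0.05 to 0.27).

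The targeted genes were sparse here. Tfap2a (ENSMUSG00000021359, chromosome 13, 40715302 to 40738376) had 98 and 102 UMIs in members, or 14.9 and 14.9 CPM, for a log2 ratio of 0.00 (-0.41 to 0.41). In Hox-negative mesenchyme it was at 19.5 and 13.3 CPM, a log2 ratio of -0.55 (-0.72 to -0.39). The difference between the sets of cells was not tested. A Tfap2a UMI was found in 14.3% and 14.6% of members and in 7.04% and 5.52% of thinned members, beside 3.16% and 1.12% of thinned midbrain-type progenitors. Thinning moved the log2 ratio in members to -0.55, and keeping only members with a Dlx5 or Dlx6 UMI moved it to -0.46. Tfap2b had 100 and 89 UMIs, with 79% and 76.4% of them in the 10 richest cells, and a log2 ratio of -0.23 (-0.65 to 0.20), which became 0.96 in members with a Dlx UMI. A count of transcript ends need not separate the intact from the recombined floxed allele, so these values do not measure the loss of function. Of the other family members, Tfap2c had 37 and 31 UMIs, and Tfap2d and Tfap2e had 0 in both libraries.

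Of 13 other Hox genes listed, the 2 with 100 or more UMIs were both past 1.5-fold lower in mutant members. Hoxa3 had 71 and 38 UMIs, a log2 ratio of -0.96 (-1.57 to -0.37), and Hoxb3 84 and 23, a log2 ratio of -1.93 (-2.66 to -1.25). Both rested on few cells. Of the Hoxa3 UMIs, 47.9% and 55.3% lay in the 10 richest cells, and of the Hoxb3 UMIs 63.1% and 95.7%. Genes of group 3 are known from the third and more posterior arches. Hoxd3 had 25 and 14 UMIs and Hoxd4 32 and 8. A UMI of Hoxa3, Hoxb3, Hoxd3 or Hoxd4 was found in 15.8% and 9.31% of members, and in 10.2% and 4.56% of thinned members beside 1.7% and 2.25% of thinned midbrain-type progenitors. Without the cells that carried these genes, the members' share of mesenchyme differed by 4.97 points (3.26 to 6.7), and the log2 ratio was 0.46 for Emx2, 0.49 for Pou3f3 and -0.55 for Hand2.

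The antisense transcript Hoxb3os had 171 and 152 UMIs, a log2 ratio of -0.23 (-0.55 to 0.10).

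TALE cofactors were close to level. All 9 listed genes had 100 or more UMIs, with a median log2 ratio of -0.09, and 1 of them, Meis3, was past 1.5-fold lower with 79 and 53 UMIs. Meis2 had 4044 and 4333 UMIs, a log2 ratio of 0.04 (-0.02 to 0.10), where Hox-negative cells gave 0.27.

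Arch Dlx genes encode homeodomain factors, and the list also held the antisense RNAs Dlx1as and Dlx6os1 but not Dlx4os. Of 8 listed genes 7 passed the count filter and none was past 1.5-fold in either direction, with a median of -0.03 beside -0.94 for the same genes in Hox-negative mesenchyme. Dlx5 had 1121 and 1168 UMIs, or 171 and 171 CPM, a log2 ratio of 0.00 (-0.12 to 0.12), against -0.63 (-0.72 to -0.55) in Hox-negative mesenchyme. Dlx6 had 421 and 431 UMIs, a log2 ratio of -0.02 (-0.22 to 0.17), against -0.94 (-1.09 to -0.78). Members of both libraries thus carried Dlx5 and Dlx6 at like levels, while Hox-negative cells carried less of both in the mutant.

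Dlx3 had 333 and 275 UMIs in members, a log2 ratio of -0.33 (-0.57 to -0.10), against -1.71 (-2.08 to -1.35) in Hox-negative mesenchyme and -1.43 in Hox-negative cells with a Dlx5 or Dlx6 UMI. Dlx2 was at -0.32 (-0.51 to -0.14), beside -0.41 in Hox-negative cells, and Dlx1 at -0.03 (-0.24 to 0.18). Antisense Dlx6os1 was at -0.34 (-0.54 to -0.13), and Dlx4os, with 106 and 60 UMIs, at -0.88 (-1.36 to -0.41). Both overlap a Dlx gene on the opposite strand, so their counts are uncertain. A Dlx5 or Dlx6 UMI was found in 61.2% and 61.3% of members, or in 48.3% and 47.2% of thinned members, beside 3.41% and 2.39% of thinned midbrain-type progenitors. The differences between members and Hox-negative cells were not tested. With 3 or more Hox UMIs asked of each member, the Dlx median was -0.25.

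Distal arch factors lay below 0. Of 11 listed genes 7 passed the count filter, and all 7 had a log2 ratio under 0, with a median of -0.47, beside -0.33 in Hox-negative mesenchyme and 0.01 in Hox-negative cells with a Dlx UMI. Past 1.5-fold lower were 2 of them, Msx2 and Gsc. Hand2 (chromosome 8, 57320983 to 57324633), the factor of the distal arch, had 322 and 224 UMIs, or 49.1 and 32.8 CPM, a log2 ratio of -0.58 (-0.83 to -0.33). A Hand2 UMI was found in 25% and 17.2% of members, a difference of -7.82 points (-13.5 to -2.11). Among thinned members Hand2 was found in 14.3% of the control, and the mutant differed from it by -2.81 points (-7.56 to 1.93), beside 0.73% and 0.702% of thinned midbrain-type progenitors. Hand2 was thus lower on the sum, and at even depth the interval of the difference in shares took in 0. The log2 ratio of Hand2 was -0.10 with 3 or more Hox UMIs asked of each member and -0.27 after thinning.

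Msx1 and Msx2 encode homeodomain factors that respond to BMP. Msx1 had 1294 and 976 UMIs, a log2 ratio of -0.46 (-0.59 to -0.34), against -0.33 in Hox-negative cells. Msx2 had 119 and 40 UMIs, a log2 ratio of -1.63 (-2.19 to -1.10), against -0.44, but 61.3% of its control UMIs lay in 10 cells. Gsc, the goosecoid homeobox gene, had 276 and 168 UMIs, a log2 ratio of -0.77 (-1.06 to -0.49). Thinning moved Msx2 to -0.80 and Gsc to -0.43. Tbx2, which encodes a T-box repressor, had 334 and 261, a log2 ratio of -0.41 (-0.65 to -0.18). Among the listed genes under the filter, Hand1 had 31 and 11 UMIs, Gata2 31 and 26 and Gata3 46 and 32.

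Proximal and intermediate factors had a median of 0.09, with 5 of 8 above 0, beside -0.07 in Hox-negative mesenchyme. Pou3f3 (chromosome 1, 42695768 to 42703176), which encodes a POU factor of the proximal arches, had 531 and 830 UMIs, a log2 ratio of 0.59 (0.43 to 0.75), against -0.05 (-0.15 to 0.06) in Hox-negative cells. Emx2 (chromosome 19, 59458372 to 59465357) had 593 and 896 UMIs, a log2 ratio of 0.54 (0.39 to 0.69), against -0.24 (-0.41 to -0.08). Both were higher in mutant members. In thinned members, Pou3f3 was found in 25.7% and 37.2%, a difference of 11.4 points (4.96 to 17.8), and Emx2 in 22.8% and 34.8%, a difference of 12 points (5.64 to 18.2). Without thinning the shares were 42.5% and 61.3% for Pou3f3 and 38.3% and 50.6% for Emx2. In thinned Alx1-rich mesenchyme, Pou3f3 was found in 10.9% and 4.61% of cells and Emx2 in 2.52% and 2.5%.

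Other genes of the proximal list had other values. Jag1, which encodes a Notch ligand, had 46 and 72 UMIs and a log2 ratio of 0.59 (0.04 to 1.15). Barx1, a homeobox gene, was at -0.05 (-0.17 to 0.06) and Eya1, whose product is a coactivator, at 0.16 (-0.19 to 0.51). Tshz2, which encodes a zinc finger factor, was past 1.5-fold lower with 425 and 283 UMIs, a log2 ratio of -0.64 (-0.87 to -0.42), and was at -0.30 in members without Hoxa3, Hoxb3, Hoxd3 or Hoxd4. Nkx3-2 had 0 UMIs in both libraries.

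**Figure D3:**
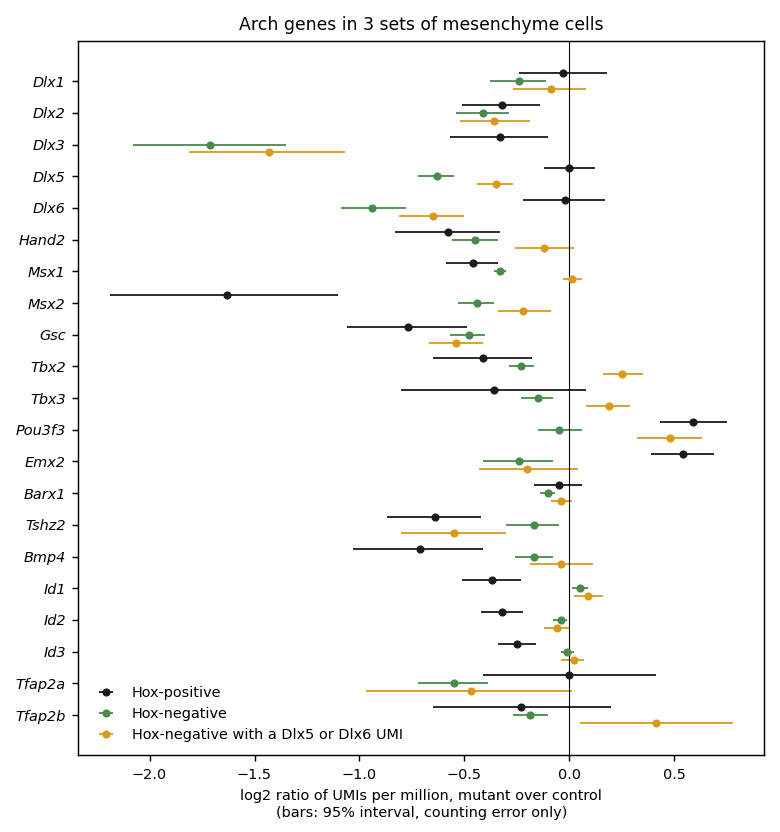
log2 ratio of CPM, mutant over control (horizontal axis), for arch genes in Hox-positive, Hox-negative and Hox-negative Dlx mesenchyme, with 95% counting intervals. Dlx5 and Dlx6 sit at 0.00 and -0.02 in Hox-positive cells and left of 0 in Hox-negative cells, and Emx2 is at 0.54 in Hox-positive and -0.24 in Hox-negative cells. The Hox-negative Dlx cells were chosen on Dlx5 and Dlx6, so their values for these genes describe the rule.

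Since Dlx5 and Dlx6 were level in the members, the members were also divided by a UMI of either gene, 252 control and 257 mutant cells with one and 160 and 162 without. This split was made after the values above were seen and is a description. In members with a Dlx UMI, Hand2 had 193 and 90 UMIs, a log2 ratio of -1.18 (-1.56 to -0.81). In members without one it had 129 and 134, a log2 ratio of 0.04 (-0.32 to 0.40). The lower Hand2 of the mutant members was therefore found on the Dlx side.

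Msx2 had 71 and 10 UMIs with a Dlx UMI, a log2 ratio of -2.91 (-4.03 to -1.95), and 48 and 30 without, a log2 ratio of -0.70 (-1.40 to -0.01). Gsc was at -0.85 (-1.18 to -0.52) with and -0.57 (-1.15 to 0.00) without, and Msx1 at -0.41 (-0.55 to -0.28) and -0.74 (-1.03 to -0.46). Pou3f3 and Emx2 were above 0 in both subsets, Pou3f3 at 0.72 (0.51 to 0.93) with and 0.40 (0.15 to 0.65) without a Dlx UMI, and Emx2 at 0.51 (0.34 to 0.67) and 0.62 (0.21 to 1.04). Some genes differed in sign between the subsets. Barx1 was at -0.26 (-0.40 to -0.13) with a Dlx UMI and 0.70 (0.44 to 0.97) without, and Six2, which Hoxa2 is known to hold down in the second arch, at 0.59 (-0.22 to 1.43) and -0.74 (-1.11 to -0.37). Hmx1 was at -0.31 (-0.60 to -0.02) and -1.37 (-1.77 to -0.98). The differences between the subsets were not tested.

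Members were further sorted by chosen genes of the proximal and distal lists, after thinning. Emx2 or Pou3f3 without Hand2, Gsc or Msx1 was found in 106 of 412 control members, 25.7% (21.6 to 30.2), and in 175 of 417 mutant members, 42% (37.2 to 46.9). The reverse, a distal gene alone, was found in 144 control members, 35% (30.3 to 39.8), and 88 mutant members, 21.1% (17.3 to 25.3). Cells with both made up 13.1% and 10.8%, and cells with neither 26.2% and 26.1%. Without thinning, the share with the proximal genes alone was 28.4% and 47.3%, and with the distal genes alone 32.5% and 22.4%. These classes were also chosen after the gene values were seen, so the shares restate those values and add no support. Tshz2 and Barx1, also of the proximal list, were not higher in mutant members and were not used.

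**Figure D4:**
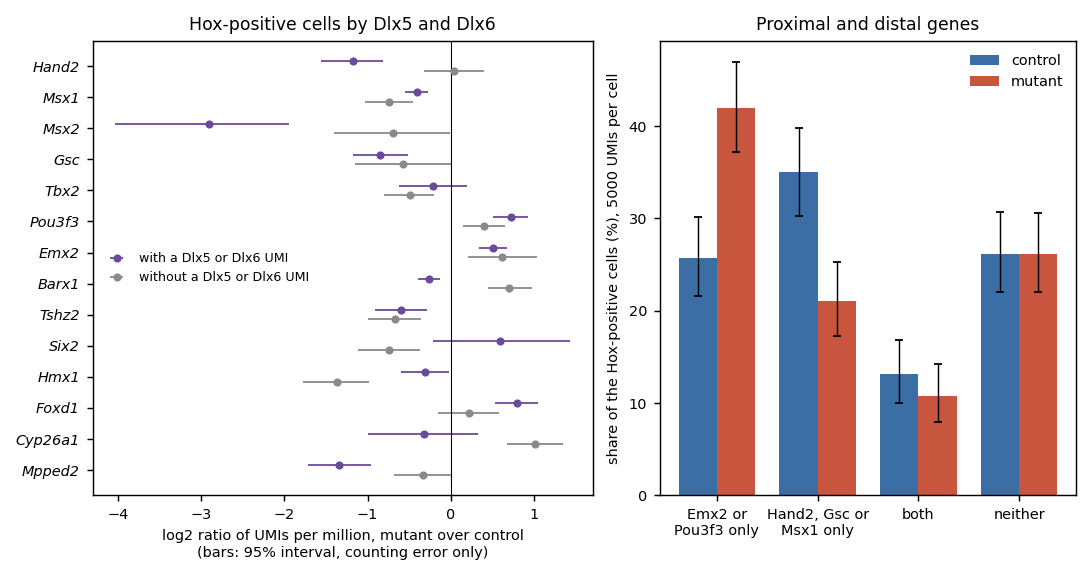
Left, log2 ratio of CPM, mutant over control, in Hox-positive cells with and without a Dlx5 or Dlx6 UMI, with 95% counting intervals. Right, share of Hox-positive cells (%) of each library by which arch genes they carried at 5000 UMIs per cell, with exact 95% intervals: the class with Emx2 or Pou3f3 alone is 25.7% of control and 42% of mutant cells.

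Genes of the BMP pathway, through which the distal arch is patterned, were mostly below 0 in the members. Of 15 listed genes 11 passed the count filter and 9 of them were under 0, with a median of -0.25 beside -0.04 in Hox-negative cells. The ligand gene Bmp4 was the 1 past 1.5-fold lower, with 227 and 144 UMIs, a log2 ratio of -0.71 (-1.03 to -0.41), against -0.17 in Hox-negative mesenchyme. Id1, Id2 and Id3, BMP target genes that encode inhibitors of bHLH factors, had log2 ratios of -0.37 (-0.51 to -0.23), -0.32 (-0.42 to -0.22) and -0.25 (-0.34 to -0.16), against 0.05, -0.04 and -0.01. Of the feedback genes, Smad7 was at -0.47 (-0.74 to -0.20) and the pseudoreceptor gene Bambi at -0.44 (-0.72 to -0.16). The receptor gene Bmpr1a was at 0.11 (-0.04 to 0.26). Bambi did not hold its direction with 2 or more Hox UMIs asked of each member, where it was at 0.02.

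Endothelin genes gave no such pattern. Of 8 listed genes 6 passed, none was past 1.5-fold, and the median was -0.08. Ednra, the receptor of arch mesenchyme, had 249 and 226 UMIs, a log2 ratio of -0.20 (-0.46 to 0.07), and the ligand gene Edn1 had 0 in both.

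Of genes known to be raised in second arches that lack Hoxa2, those that passed the count filter were not higher in mutant members. Members were chosen for a Hoxa2 or Hoxb2 UMI, so cells without either were left out. The values therefore cannot show what a loss of Hoxa2 would do. Of 7 listed genes 4 passed, all 4 were under 0 and the median was -0.35, beside -0.24 in Hox-negative cells. Pitx1 had 107 and 68 UMIs, a log2 ratio of -0.71 (-1.17 to -0.26), with 86% of the control UMIs in 10 cells, and was at 0.05 with 2 or more Hox UMIs asked of each member. Six2 had 185 and 134, a log2 ratio of -0.52 (-0.85 to -0.19), and Sox9, the regulator of cartilage, 1419 and 1312, a log2 ratio of -0.17 (-0.28 to -0.06).

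Genes of other facial regions were also read in the members. Alx1 had 201 and 128 UMIs, a log2 ratio of -0.71 (-1.04 to -0.38), where Hox-negative cells gave -0.61, and 52.2% and 77.3% of its UMIs lay in 10 cells. Of the oral maxillary and mandibular list, 4 of 6 genes passed, 1 above 0 and 3 below, with a median of -0.07. The 1 above 0 was Lhx8, a LIM homeobox gene, which had 317 and 395 UMIs, a log2 ratio of 0.26 (0.04 to 0.48). In 10 cells lay 56.2% of its control and 35.4% of its mutant UMIs. A Lhx8 UMI was found in 14.8% and 22.2% of members, or in 8.5% and 12.5% of thinned members beside 1.22% and 1.54% of thinned midbrain-type progenitors.

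Signals and matrix differed by gene. In the retinoid list, 11 of 18 genes passed, 1 higher and 1 lower past 1.5-fold. Stra6, the receptor for retinol uptake, had 140 and 78 UMIs, a log2 ratio of -0.90 (-1.32 to -0.49). Cyp26a1, which encodes an enzyme that degrades retinoic acid, had 153 and 258, a log2 ratio of 0.70 (0.40 to 0.99) against 2.28 in Hox-negative cells. Crabp1, a retinoic acid binding protein gene, had 4826 and 3671 UMIs, a log2 ratio of -0.45 (-0.51 to -0.39) against -0.87. In Hox-negative cells with a Dlx UMI, Crabp1 was at -0.27. Cyp26a1 had 40 control and 31 mutant UMIs in those cells, a log2 ratio of 0.45 (-0.27 to 1.17). In members with a Dlx UMI Cyp26a1 was at -0.32 (-0.99 to 0.33), and in those without at 1.01 (0.67 to 1.35).

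Of 6 Notch genes that passed, 5 were above 0 and 2 past 1.5-fold, with a median of 0.34 beside 0.18 in Hox-negative cells. The receptor gene Notch1 had 153 and 228 UMIs, a log2 ratio of 0.52 (0.22 to 0.82). Hey1, a target of Notch, had 66 and 112, a log2 ratio of 0.71 (0.25 to 1.17), which became -0.17 in members with a Dlx UMI. Forkhead genes had a median of 0.20, beside 0.29 in Hox-negative cells. Foxd1 was past 1.5-fold higher, at 0.59 (0.38 to 0.81), and Foxf1 past 1.5-fold lower, at -0.98 (-1.44 to -0.53), with 57% of its control UMIs in 10 cells.

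Collagens and matrix genes had a median of 0.04 in members, 0.27 in Hox-negative mesenchyme and 0.05 in Hox-negative cells with a Dlx UMI. None of the 16 that passed was past 1.5-fold in members. Col1a1 had 540 and 572 UMIs, a log2 ratio of 0.03 (-0.15 to 0.20), against 0.59 in Hox-negative cells. Col2a1, the cartilage collagen gene, had 1148 and 1029 UMIs, a log2 ratio of -0.22 (-0.34 to -0.09), against 0.30. Lum, which encodes a small proteoglycan of collagen fibrils, had 160 and 240, a log2 ratio of 0.53 (0.23 to 0.82), against 0.81. In 10 cells lay 52.5% of its control and 40% of its mutant UMIs. In Hox-negative cells with a Dlx UMI, Col1a1 was at 0.15, Col2a1 at -0.29 and Lum at 0.78. Hedgehog, FGF and Wnt lists had medians of 0.07, -0.09 and 0.01. Past 1.5-fold was 1 gene of these lists, the Wnt antagonist gene Dkk1 at -0.60 (-1.11 to -0.10). Of the Dkk1 UMIs, 65.1% in the control and 61.4% in the mutant lay in 10 cells.

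Cell cycle genes were level. The 16 S phase genes had a median of 0.03 and the 16 G2/M genes one of 0.01, beside -0.03 and -0.13 in Hox-negative cells, with none past 1.5-fold. The medians of the 5 p53 targets and the 2 dissociation response genes that passed were -0.02 and 0.12. Both skeletogenic regulators that passed lay under 0, with a median of -0.26.

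The genes with the largest ratios were mostly of no arch list. Highest by the rule for named genes was Gm15261 (chromosome X, 169037674 to 169106536), with 5 and 1780 UMIs, a log2 ratio of 8.42 (7.19 to 10.04). Next was Arhgap6, a GTPase activator gene that Gm15261 overlaps on the opposite strand, with 7 and 756, a log2 ratio of 6.70. Hccs, which also overlaps Arhgap6 on the opposite strand and encodes a haem lyase, was at 1.23. Hox-negative cells gave 7.10, 5.59 and 1.06 for these genes, which all lie on chromosome X. The other genes of the 10 were Hs3st1, AA465934, Slc16a3, Ankrd37, Snhg3, Pcgf5 and Kbtbd11, from 1.03 to 1.55. Hs3st1, which encodes a heparan sulfate sulfotransferase, had 26 and 79 UMIs, a log2 ratio of 1.55 (0.89 to 2.24), against -0.12 in Hox-negative cells.

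At the low end the 10 genes were Hist1h2ak, Pdgfrl, Acer2, Pcdh10, Eno1b, Kdm6a, Hmga1b, Rspo1, Dusp23 and Hoxa3. Hist1h2ak, a histone gene of a near-identical family, had 295 and 46 UMIs, a log2 ratio of -2.74 against -3.05 in Hox-negative cells. Eno1b and Hmga1b are near-identical copies of other genes, so their counts are uncertain. Kdm6a, an X-linked histone demethylase gene, was at -1.03 against -0.60. Pcdh10, which encodes a protocadherin, had 332 and 164 UMIs, a log2 ratio of -1.08 (-1.35 to -0.80), against -0.21. Acer2, a ceramidase gene, had 118 and 52, a log2 ratio of -1.24 (-1.74 to -0.76), against -0.10, and Pdgfrl 74 and 28, a log2 ratio of -1.46 (-2.14 to -0.81), against -0.19. In members with a Dlx UMI Pdgfrl was at 0.02. Tbx15, a T-box gene, had 92 and 19 UMIs, a log2 ratio of -2.33, and was left out of the 10 because 60.9% of its control UMIs lay in 10 cells.

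**Figure D5:**
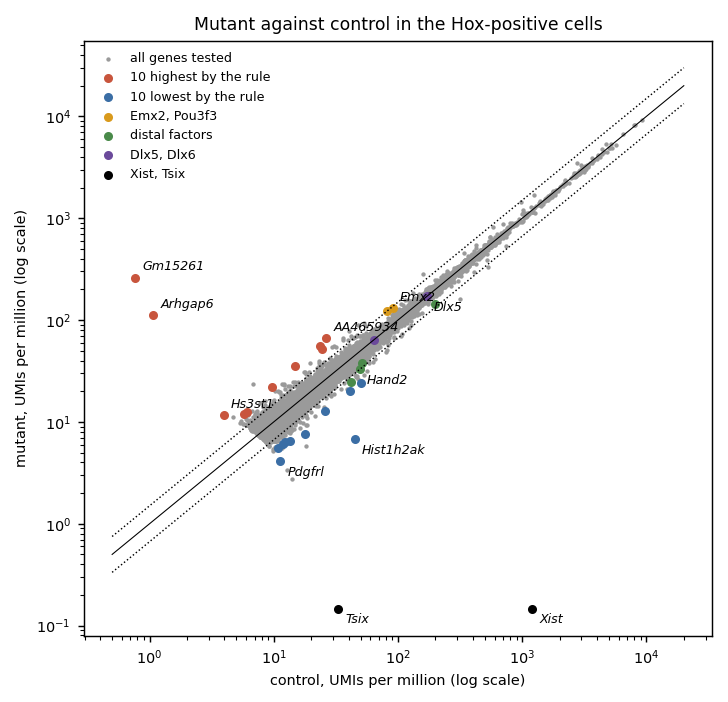
CPM of the genes tested in Hox-positive cells of the control (horizontal, log scale) and mutant (vertical, log scale) libraries, with 1.5-fold lines and named genes coloured. Most genes lie within the lines, Gm15261 and Arhgap6 lie far above them, Xist and Tsix far below, and 4 Y-linked genes with 0 control UMIs cannot be drawn on a log axis.

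Markers of other cells were also summed over the members. The 5 neuron markers summed to 45 and 59 CPM, and Stmn2 had 51 and 105 UMIs. The 7 mural markers summed to 60.5 and 87.6, with Acta2 at 1 and 90 UMIs in 1 and 5 cells. Tagln had 45 and 159 UMIs, with 90.6% of the mutant ones in 10 cells. The 5 glia markers summed to 14.9 and 18, with Foxd3 at 0 in both, the 5 neural progenitor markers to 43 and 39.4, and the 6 blood and immune markers to 5.8 and 0.879. The 5 muscle markers had 0 and 1 UMIs, with 4 of them at 0, the 5 endothelial markers 19 and 14 UMIs, and the 5 epithelial markers 49 and 56. Their part in the gene differences was not tested. Scrublet called 1.21% of control and 1.67% of mutant members doublets, and without these the log2 ratio was 0.57 for Pou3f3, 0.52 for Emx2 and -0.54 for Hand2.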

How the data were processed

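Single-cell RNA was captured from GFP-sorted cells with 10x Chromium 3′ v3.1 chemistry, in 1 control and 1 mutant library of 2 pooled embryos each. The authors counted UMIs per gene and cell with Cell Ranger (6.0.0 in the file headers) against mm10, and the counts were used as deposited, with 32285 features, of which 32235 were in GENCODE M21 (GRCm38). The submitters' processing notes also name Seurat 4.3.0.

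Barcodes with 200 to 7500 genes and at most 10% mitochondrial UMIs were kept. Members were compared over summed UMIs scaled to equal library sums (CPM), with conditional binomial intervals for ratios and Clopper-Pearson intervals for shares (95%, counting error only). With 1 library per group there was no test, and a gene was called at 1.5-fold with 100 or more UMIs over both libraries. Named genes were those of the gene lists, the 10 highest and 10 lowest ratios whose interval left out 0, and the 15 leading markers. Also named were genes lowest in members against Hox-negative cells and, after their values were seen, the genes of the last section. The 10 highest and 10 lowest left out gate, haemoglobin and mitochondrial genes and Xist, Tsix, Ddx3y, Eif2s3y, Uty and Kdm5d. They had at most 50% of the UMIs of the library where the gene is higher in 10 cells. Other X-linked genes were kept. Members and lists were chosen with earlier results of these data known. Doublets called by Scrublet in scanpy 1.11.5 were kept and removed in an alternative. Midbrain-type progenitors had 2 or more UMIs of Sox2 and of Otx2. The computation, tested on simulated data, used Python 3.11.15, numpy 2.4.6, scipy 1.17.1 and pandas 2.3.3. Some genes are not reported here.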

Additional observations from a re-analysis of the deposited data

Results flagged for a closer look

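Among genes of the lists and the genes named by rule that had 100 or more UMIs over both libraries' members, 11 were singled out because the log2 ratio of mutant over control had opposite signs in Hox-positive and Hox-negative mesenchyme, with counting intervals that left out 0 in both. How many of all 9014 genes tested would meet this rule is not given. The difference between these sets of cells was not tested, and each set comes from 1 library per group. Higher in mutant members and lower in Hox-negative cells were Emx2, at 0.54 and -0.24, and Cdc45, which encodes a replication factor, at 0.47 and -0.13. The other 9 ran the other way. Hmx1 was at -0.72 in members and 0.49 in Hox-negative cells, and Mpped2, which encodes a phosphoesterase, at -0.82 and 0.09. Matrix genes were 4 of the 9, with Bgn at -0.37 and 0.51, Col1a2 at -0.24 and 0.11, Col2a1 at -0.22 and 0.30, and Col5a2 at -0.25 and 0.17. The collagen and matrix list supplied 16 of the genes that this rule could take. Flrt2, a cell surface protein gene, was at -0.29 and 0.21, the BMP target gene Id1 at -0.37 and 0.05, and the Wnt antagonist gene Sfrp1 at -0.27 and 0.44. In Hox-negative cells with a Dlx UMI, Col2a1 (-0.29), Col5a2 (-0.27) and Flrt2 (-0.51) were below 0, as in members. Bgn (-0.05), Col1a2 (-0.03), Cdc45 (0.02) and Emx2 (-0.20) had intervals there that took in 0. Hmx1 (1.26) and Id1 (0.09) were above 0 there. The values of Mpped2 and Sfrp1 in those cells are not given here.

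Y-linked transcripts, which the ranking of the highest and lowest genes left out, were present in 89.7% of mutant members and in 0 of 412 control members.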

How the results depend on the processing

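No paired analysis was possible because the labels carry no replicate numbers and each group is 1 library, and with 1 library per group no replicate was left out. Of 2330 gene values under the alternatives 2161 stayed inside the counting interval of the reported value, 158 lay outside it, and 11 changed sign where that interval left out 0. Of 277 other values 263 moved little, 13 moved further and 1 was reversed. The alternatives without cells with posterior Hox genes and with Dlx cells alone were chosen after seeing the data. Causes were not tested.

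Thinning gave 67 higher and 65 lower of 5744 genes tested (1.17% and 1.13%), a filter of 20 UMIs gave 440 higher and 460 lower, and no filter gave 1337 and 1409. The difference in the members' share of mesenchyme was 2.66 points with 2 or more and 1.38 with 3 or more Hox UMIs, and 2.73 after thinning. The Hand2 share differed by -7.82 points without thinning. Median log2 ratios became -0.25 for Dlx genes (3 or more Hox UMIs), -0.85 for distal arch factors (Dlx cells) and -0.27 for oral maxillary and mandibular identity (thinned). For neuron markers the median went from 0.33 to -0.32 (3 or more) and to 0.85 (thinned). With 2 or more Hox UMIs a log2 ratio whose interval left out 0 changed sign for Bambi (0.02), Crym (0.02) and Pitx1 (0.05), and with 3 or more for Bambi (0.10), Dusp6 (-0.03), Sox9 (0.07) and Tubb3 (-0.41). In Dlx cells it did so for Cyp26a1 (-0.32), Hey1 (-0.17), Pdgfrl (0.02) and Six2 (0.59). Tfap2b, whose interval took in 0, went from -0.23 to 0.96 in Dlx cells.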

Other observations

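The genes in this section belong to no gene list and were chosen after their values were seen. Slc16a3 was also among the 10 highest genes by the rule. The first 6 genes given here had values above 0 both in members and in Hox-negative mesenchyme. Bnip3, which encodes a mitochondrial protein of mitophagy, had 202 and 381 UMIs in control and mutant members, a log2 ratio of 0.86 (0.61 to 1.11), and 0.83 in Hox-negative cells. Pdk1, the kinase gene that restrains pyruvate dehydrogenase, had 116 and 211 UMIs, a log2 ratio of 0.81 (0.47 to 1.14), beside 0.84. The hexokinase gene Hk2 was at 0.71 (0.39 to 1.04) beside 0.68, the collagen prolyl hydroxylase gene P4ha1 at 0.62 (0.41 to 0.84) beside 0.69, and Ddit4, which encodes a brake on mTORC1, at 0.78 (0.53 to 1.03) beside 0.65. The lactate transporter gene Slc16a3 was at 1.23 (0.88 to 1.58) beside 1.12.

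Other genes lay away from 0 in the members and nearer to 0 or on its other side in Hox-negative cells, a difference that was not tested. The chemokine gene Cxcl14 had 277 and 480 UMIs in members, a log2 ratio of 0.74 (0.52 to 0.95), beside -0.03 in Hox-negative mesenchyme. Smoc2, a matricellular protein gene, was at 0.78 (0.49 to 1.08) beside 0.03. Lower in mutant members were the ligand gene Tgfb2, at -0.84 (-1.12 to -0.57) beside -0.19, the GATA-type repressor gene Trps1, at -0.71 (-0.92 to -0.51) beside -0.08, and the ephrin receptor gene Epha3, at -0.67 (-0.87 to -0.47) beside -0.28. Ptx3, a pentraxin gene, was at -0.62 (-0.86 to -0.39) in members and 0.43 in Hox-negative cells.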
